A study of Mus musculus with 24 samples.

Results

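The comparison described here was that of early against late mammary tumors in mice that were fed a high-fat diet around puberty only. It rests on 6 of the 24 tumor arrays of the series, chosen by their labels: 3 labeled HFD-LFD Early (MSU_51, MSU_54 and MSU_62b) and 3 labeled HFD-LFD Late (MSU_26, MSU_58 and MSU_59b). All 6 tumors arose in female BALB/c mice, an obesity-resistant strain, that ate a high-fat diet rich in saturated animal fats (HFD) from the weeks after weaning through puberty and a low-fat diet (LFD) in adulthood, and that were given the mammary carcinogen 7,12-dimethylbenz[a]anthracene (DMBA). Early tumors came soon after the carcinogen and late tumors after a longer delay, so the 2 groups differed in latency and shared the diet sequence, strain and carcinogen. Mice of the late group also spent longer on LFD before the tumor appeared, and the study's pathology was not alike at short and long latency, so latency, time on LFD, histology and receptor status cannot be told apart here. The series also holds tumors of mice on the continuous HFD (3 early and 6 late), the continuous LFD and the reverse switch, and the HFD tumors serve below as the closest comparison. The question was which transcripts separated tumors of short and long latency within one diet sequence. Total RNA of each whole tumor was hybridized to a 2-color Agilent whole mouse genome array against a commercial reference RNA pooled from 11 mouse cell lines. In whole-tumor RNA, fewer cells of a type and less RNA per cell cannot be told apart. The labels do not state that the tumors of a group came from separate mice, so the p-values below measure the spread between samples. That spread was estimated within the groups of all 24 arrays, beyond the 6 compared here.

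Mouse mammary tumors induced by DMBA are varied in their makeup. They can keep luminal features, the program of the secretory and hormone-sensing cells that line ducts and alveoli, or take on basal features, or turn partly into squamous epithelium with keratin pearls and even hair-like keratins, as in adenosquamous carcinoma. Infiltrating T cells, neutrophils and macrophages, stroma and fragments of neighboring fat and muscle add their own transcripts. Interferon-stimulated genes are the antiviral and immune program that type I and type II interferons switch on through JAK kinases and IRF factors, and a tumor can express them in its carcinoma cells as well as in its infiltrate. Hox genes encode homeodomain transcription factors that lie in 4 clusters and give cells a positional identity, which mammary epithelium keeps in part.

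Each value is a log2 ratio of tumor over reference, after background correction and loess normalization. Dimmed rows were masked before that on the slide of MSU_59b and on another slide that holds none of the 6 arrays. The labels place the tumor in Cy5 and the reference in Cy3, and the study's methods state the opposite for the reference, so all directions below oppose that sentence. The Cy5 signal varied more between the 24 arrays (median SD 0.67 on the log2 scale) than the Cy3 signal (0.254), which is the pattern of a channel that holds different tumors beside a channel that holds a common reference. Probes of Y-linked genes gave the same orientation, with 0 spots well above background in Cy5 and 2 in Cy3 on each of the 6 arrays. Between 66.8% and 72.4% of the spots on the early arrays had a tumor signal well above background, and 67.9%, 67.3% and 80.3% were so in MSU_26, MSU_58 and MSU_59b. On MSU_59b the rows 1 to 110 were dimmed in Cy5, the lowest band by -3.46 on the log2 scale, and the 20.2% of its spots in those rows were set missing. A gene whose probe had no spot outside those rows has only 2 late values. In all, 4086 genes, 19.5% of those tested, had no value of MSU_59b. Values are listed for MSU_51, MSU_54 and MSU_62b among the early tumors, and for MSU_26, MSU_58 and MSU_59b among the late tumors, or for MSU_26 and MSU_58 where MSU_59b was masked.

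The early tumors resembled each other more than the late tumors did. Over the 16740 genes measured in all 6 tumors, pairs of early tumors correlated at 0.931 to 0.954, and pairs of late tumors at 0.743 to 0.838. Early and late tumors correlated with each other at 0.737 to 0.877. MSU_59b correlated more with MSU_51, MSU_54 and MSU_62b (0.854, 0.819 and 0.877) than with MSU_26 (0.811) or MSU_58 (0.743). MSU_26 correlated with the same early tumors at 0.84, 0.863 and 0.826, and with MSU_58 at 0.838. These are correlations across genes, which are not independent replicates, and all arrays share the reference. The median SD of a gene was 0.143 among the early tumors and 0.264 among the late tumors, and 76.7% of genes had the larger SD in the late group. The early arrays share 1 slide and 1 scan session, the late arrays lie on 2 slides in 2 sessions, and MSU_59b keeps a weaker row gradient outside the masked rows, so likeness of the tumors and likeness of the arrays cannot be told apart.

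Of 20944 genes tested, 193 (0.922%) differed between early and late HFD-LFD tumors at an adjusted p under 0.05 (limma, Benjamini-Hochberg over all tested genes). In the early tumors 117 of them (0.559%) were higher, by 0.59 to 4.66 on the log2 scale, and 76 (0.363%) were lower, by -0.53 to -3.48. The groups did not overlap for any of the 193. Over all tested genes, 14.7% had every early value above every late value and 19.4% had every early value below. The median difference over all tested genes was -0.06, and 43.8% of them had a difference above 0. That share is the background for the counts of list genes above or below 0 given later. No threshold other than the adjusted p was used, and 3336 genes had an unadjusted p under 0.05.

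The count depended on how the arrays were blocked and on single tumors. The early tumors lay on 1 slide, with MSU_26 and MSU_58 on a second slide and MSU_59b on another, so slide and latency were nearly the same split. A fixed slide block left 2 genes called, neither among the 193, and with slide as a random block 57 were, all of them among the 193. MSU_59b was scanned in another session than the other 5. With scan session as a block 397 genes were called, 176 of them among the 193, and within the session that held the 3 early tumors, MSU_26 and MSU_58, 1646 genes were called, 161 of them among the 193. Without MSU_51, MSU_54, MSU_62b or MSU_58 the count was 33, 51, 66 or 47, and without MSU_26 or MSU_59b it was 163 or 280. Of the latter, 87 and 148 were among the 193. The split was 72 higher and 91 lower without MSU_26, and 136 higher and 144 lower without MSU_59b. With each array centered on its median in place of loess, the median of all genes moved from -0.06 to 0.23 and the calls became 400 higher and 28 lower, so the split of 117 to 76 belongs to the loess scale.

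The largest rises in early tumors lay in genes of varied known roles. Neto1, which encodes an auxiliary subunit of glutamate receptors, read 2.52, 0.998 and 1.03 in the early tumors and -3.01, -3.12 and -3.28 in the late tumors. The difference of 4.66 (SE 0.53, adjusted p = 0.000495) was the largest fitted among the genes called, and the probe was well above background on 3 of 3 early arrays and 1 of 3 late arrays. Aldh1a1, a retinaldehyde dehydrogenase that makes retinoic acid, read 3.29, 3.95 and 3.30 against -0.68, 0.10 and -0.99, a difference of 4.03 (SE 0.64, adjusted p = 0.00449). The early values of both genes lay at least 3 log2 units above the late values, and Neto1 in MSU_51 was the one value apart from its group.

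The mm9 probe position of Aldh1a1 is chr19:20717764-20717823. Loxl4, a lysyl oxidase-like enzyme of collagen cross-linking, was 3.85 higher (SE 0.92, adjusted p = 0.0469) and kept its call under 8 of 25 alternatives. Lpar3, a receptor for lysophosphatidic acid, read 3.59, 3.43 and 3.31 against -1.05, -0.65 and 1.02 and was 3.67 higher (SE 0.65, adjusted p = 0.00837). Lrrtm1, a synaptic adhesion protein, was 3.49 higher (SE 0.48, adjusted p = 0.00218). The probes of Loxl4, Lpar3 and Lrrtm1 lie on MSU_59b just outside the masked rows, where a weaker gradient of Cy5 remained. The same 3 genes were separated within the other 5 tumors, since MSU_26 and MSU_58 read -1.28 and -1.83 for Loxl4, -1.05 and -0.65 for Lpar3, and -2.30 and -2.37 for Lrrtm1.

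Among signaling genes, Dact1, a Dishevelled-binding regulator of Wnt signaling, read 0.51, 0.62 and -0.12 against -2.16, -3.79 and -2.56, a difference of 3.18 (SE 0.59, adjusted p = 0.0129). Ntf3, the neurotrophin-3 ligand, read 1.43, 0.79 and 1.11 against -2.38, -2.88 and -0.77, a difference of 3.12 (SE 0.61, adjusted p = 0.0172). For both genes MSU_58 was the lowest tumor, and for Ntf3 MSU_59b stood nearer to the early tumors than the other late tumors did. Cybrd1, a membrane ferric reductase, was 2.82 higher (SE 0.46, adjusted p = 0.00807), and Bcas1, a gene of myelinating cells first named for its amplification in breast cancer, was 2.91 higher (SE 0.51, adjusted p = 0.00807). Fam181b and Wdr86 followed among the largest rises with 3.08 (SE 0.56, adjusted p = 0.0165) and 2.90 (SE 0.42, adjusted p = 0.00334). In MSU_59b, Lpar3, Fam181b, Bcas1 and Cybrd1 were above 0 at 1.02, 0.14, 0.32 and 0.83, and all 4 remained below every early tumor.

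**Figure D1:**
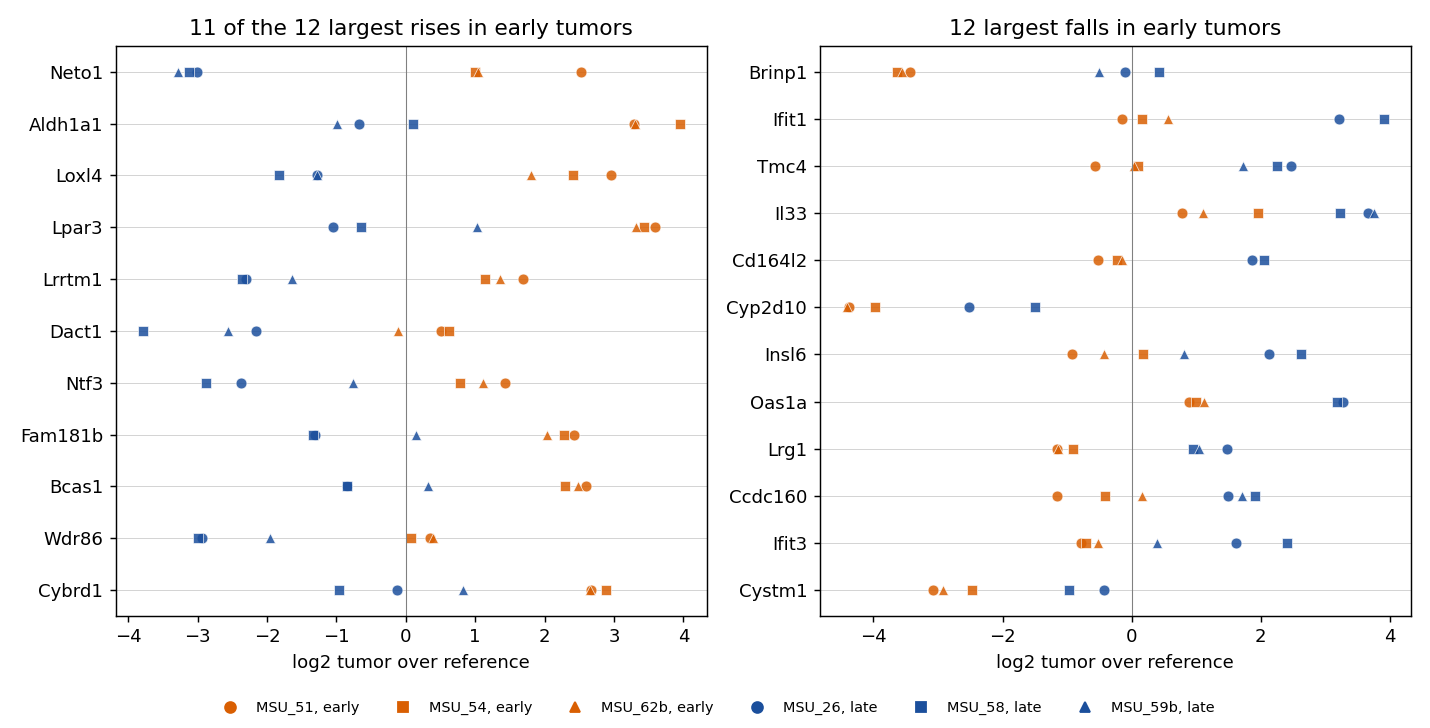
The log2 ratio of tumor over reference in each of the 3 early and 3 late HFD-LFD tumors, for 11 of the 12 largest rises (left) and the 12 largest falls (right) among called genes. Each point is 1 tumor, and the early and late points of a gene do not overlap. A gene with 2 late points was masked in MSU_59b.

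A further 3 rises were named after their values were seen. Ror2, a receptor of the Wnt5a ligand, read 1.08, 1.07 and 1.01 against -1.70, -1.88 and -0.24, a difference of 2.33 (SE 0.53, adjusted p = 0.0398). Gli3, a transcription factor of Hedgehog signaling, read 0.36, 0.14 and 0.29 against -1.28, -2.005 and -0.72, a difference of 1.60 (SE 0.38, adjusted p = 0.0469). Reck, a membrane-anchored inhibitor of matrix metalloproteinases, read 0.34, 0.41 and -0.32 against -1.40, -1.32 and -1.61, a difference of 1.59 (SE 0.30, adjusted p = 0.0133). The early values of Ror2 and Gli3 were close together, and MSU_59b was the highest of the late tumors in both. In the list of EGF family ligands and receptors, 1 of 14 tested genes was called, higher in early tumors, against 0.559% of all genes. Like all lists here, it was chosen with earlier results of these data known. This was Tgfa, a ligand of the EGF receptor, with 2.32, 2.22 and 1.96 against 0.70, -0.02 and 0.74 and a difference of 1.69 (SE 0.34, adjusted p = 0.0195). Areg, another ligand of the same receptor, ran the other way at -1.68 (SE 1.05, adjusted p = 0.453) and was not called.

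A run of 5 adjacent tested transcripts of the HoxD cluster on chromosome 2 was higher in early HFD-LFD tumors. Within 150 kb of the Hoxd8 probe, a window chosen after these calls were seen, 10 genes were tested, and 5 were called higher and 0 lower. Over all genes 0.559% were called higher, and the count of the window is a description with no test. Hoxd8 (chr2:74545171-74545230, mm9) read 1.44, 0.68 and -0.36 against -2.06, -1.52 and -2.48, a difference of 2.61 (SE 0.45, adjusted p = 0.00807). Hoxd4 (chr2:74566866-74566925) read 2.47, 2.62 and 1.47 against 0.44, -0.10 and -0.22, a difference of 2.15 (SE 0.49, adjusted p = 0.0372). Hoxd3 (chr2:74585787-74585846) read 0.91, 0.87 and 0.37 against -0.34, -0.46 and -0.49, a difference of 1.15 (SE 0.20, adjusted p = 0.0129). The Hoxd3 probe was well above background on 3 of 3 early arrays and 1 of 3 late arrays, so its late values lie near the floor. In all 3 genes MSU_51 and MSU_54 were higher than MSU_62b, which still lay above every late tumor.

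The other two called transcripts of the region are noncoding or unnamed. Hoxd3os1, a transcript from the opposite strand of the cluster (chr2:74548166-74548225), read 2.11, 1.87 and 1.03 against -0.79 and -0.79, a difference of 2.47 (SE 0.30, adjusted p = 0.00173). Its probe was well above background on all 3 early arrays and on neither late array with a value. Its late ratios are thus readings near the floor, and only a bound holds there. On the scale of the tumor channel alone, which is not that of the ratio, its signal was at least 6.29-fold higher in early tumors. The unnamed transcript AI448005 (chr2:74569698-74569757) read 1.85, 1.52 and 0.38 against -1.097, -1.14 and -1.42, a difference of 2.47 (SE 0.51, adjusted p = 0.022). Hoxd3os1 kept its call under 22 of 22 alternatives, Hoxd8 under 21 of 25, AI448005 under 20 of 25, Hoxd3 under 19 of 25 and Hoxd4 under 16 of 25. The call ended with slide as a fixed block for Hoxd8, Hoxd4, Hoxd3 and AI448005, and Hoxd3os1 could not be fitted there. The tested neighbors, Hoxd9 (0.70), Hoxd10 (-0.47), Hoxd11 (-0.24) and Evx2 (-0.29) on one side and the unnamed transcript ENSMUST00000100000 (0.70) on the other, were not called. Of 29 Hox genes tested in 4 clusters, a list added after the values were seen, 3 were called higher, against 0.559% of all genes. These are the same Hoxd8, Hoxd4 and Hoxd3 as above, so the count adds no further call. None was called among the 7 of HoxA, 8 of HoxB and 8 of HoxC, where 0.922% of all genes were called.

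None of the 5 transcripts rose in early tumors of the continuous HFD. There the early minus late difference was -0.21 for Hoxd8 (adjusted p = 0.759), -1.14 for Hoxd4 (adjusted p = 0.0763), -0.47 for Hoxd3 (adjusted p = 0.104), -0.0043 for Hoxd3os1 (adjusted p = 0.99) and -1.35 for AI448005 (adjusted p = 0.0464). The difference between the changes was 2.47 for Hoxd3os1 (SE 0.38, adjusted p = 0.0931), 3.83 for AI448005 (adjusted p = 0.142), 1.62 for Hoxd3 (adjusted p = 0.143) and 3.29 for Hoxd4 (adjusted p = 0.218). These were 4 of the 5 smallest p-values of that test over all genes, and none passed the threshold. The fifth was Aaas, a nuclear pore protein, with a difference of -0.16 in HFD-LFD and 1.01 in HFD (adjusted p of the difference between the changes = 0.218). Lower values in early HFD tumors were not limited to the 5 transcripts. There Hoxd10 and Hoxd9 differed by -1.03 and -0.996 (adjusted p = 0.0294 and 0.04995). The medians in HFD were -0.39, -0.62, -0.70 and -0.73 for the tested genes of HoxA, HoxB, HoxC and HoxD, against -0.08 over all genes.

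**Figure D2:**
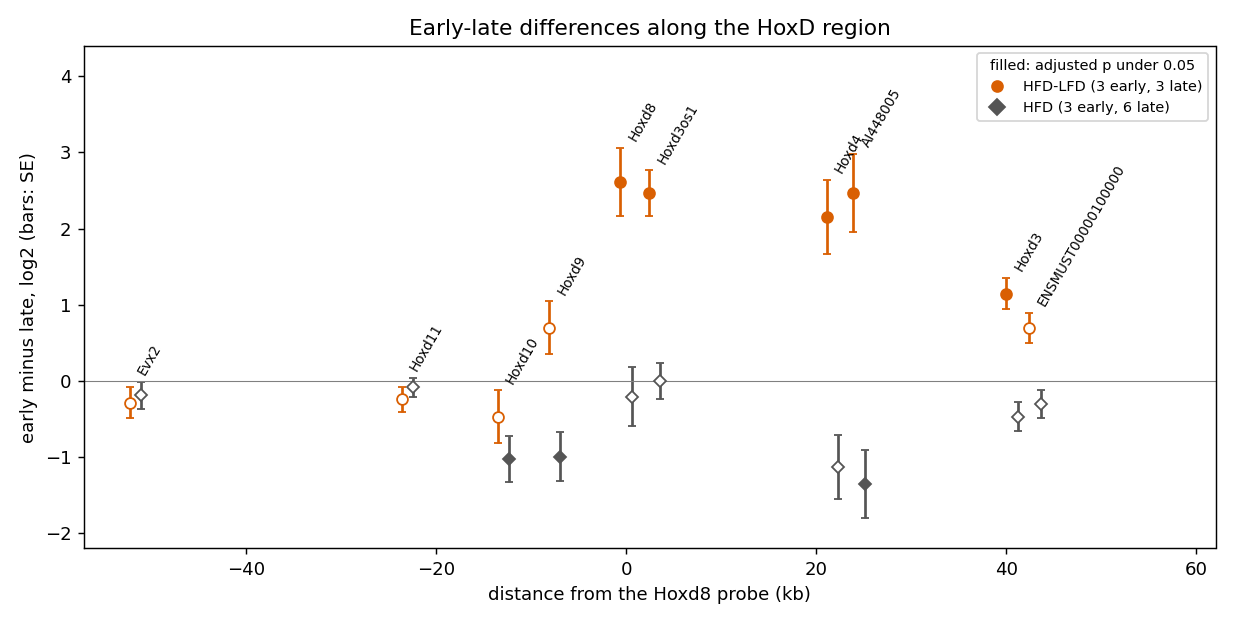
Early minus late difference in log2 ratio (bars, SE) of the 10 genes tested within 150 kb of the Hoxd8 probe, by distance in kb, for HFD-LFD (circles) and HFD tumors (diamonds). Filled symbols have an adjusted p under 0.05. The 5 filled HFD-LFD circles stand between 1.15 and 2.61, where the HFD diamonds lie at or below 0.

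Interferon-stimulated genes were lower in early than in late HFD-LFD tumors. Of 19 tested genes of the list, 5 fell and 0 rose, against 0.363% called lower over all genes. Of the other 14, 13 had a difference below 0, and 13 of the 19 had every early value below every late value, against 19.4% of all genes. The median difference of the list was -1.95, against -0.06 over all genes. Oas2, a synthase of the 2',5'-oligoadenylates that activate RNase L, read 0.97, 1.29 and 1.44 against 3.76, 3.65 and 2.46, a difference of -2.06 (SE 0.35, adjusted p = 0.00975). Ifit3, an interferon-induced tetratricopeptide protein, read -0.78, -0.71 and -0.52 against 1.61, 2.41 and 0.39, a difference of -2.14 (SE 0.48, adjusted p = 0.0372). In both genes MSU_59b was the lowest late tumor and still above the early tumors.

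Ifit1, which binds viral RNA that lacks a host cap, read -0.15, 0.16 and 0.56 against 3.22 and 3.90, a difference of -3.37 (SE 0.77, adjusted p = 0.0458) and a 10.3-fold higher ratio in late tumors. Oas1a, a second oligoadenylate synthetase, read 0.89, 0.99 and 1.12 against 3.28 and 3.19, a difference of -2.23 (SE 0.51, adjusted p = 0.0463). Mx1, an antiviral GTPase, read 0.998, 1.13 and 1.37 against 2.78 and 3.47, a difference of -1.96 (SE 0.42, adjusted p = 0.0353). These 3 genes were masked in MSU_59b, and their late values rest on MSU_26 and MSU_58. Oas2 kept its call under 18 of 25 alternatives, Ifit3 under 13 of 25, and Ifit1, Oas1a and Mx1 under 11 of 24, 11 of 24 and 11 of 24. With slide as a fixed block, Oas2 and Ifit3 had differences of -0.97 and -1.001 and were not called, and the other 3 could not be fitted. Over the whole list, 0 of the 19 genes were called without MSU_58 or without MSU_51, 1 without MSU_26, MSU_54 or MSU_62b, and 14 without MSU_59b, while the list median stayed between -1.61 and -2.47. With scan session as a block 10 genes of the list were called, and within the session of the other 5 tumors 18 were, all lower in early tumors. Oas1a and Ifit3 have close paralogs whose transcripts their probes may share.

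The promoters of Ifit1, Ifit3 and Oas1a are shown because they are the called list genes with an entry in the RefSeq table (GRCm38.p6), and each is the 250 bases before the gene's start on the gene's strand. Capitals mark matches to GAAANNGAAA, the core of the interferon-stimulated response element, searched on both strands, where the opposite strand reads TTTCNNTTTC and neighboring matches can overlap.
Ifit1 (chr19:34640639-34640888, plus strand): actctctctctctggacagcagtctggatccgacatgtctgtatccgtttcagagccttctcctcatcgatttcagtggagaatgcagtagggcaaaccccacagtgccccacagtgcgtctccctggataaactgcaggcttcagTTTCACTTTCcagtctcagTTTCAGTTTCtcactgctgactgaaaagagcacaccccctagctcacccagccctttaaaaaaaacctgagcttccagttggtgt
Ifit3 (chr19:34583279-34583528, plus strand): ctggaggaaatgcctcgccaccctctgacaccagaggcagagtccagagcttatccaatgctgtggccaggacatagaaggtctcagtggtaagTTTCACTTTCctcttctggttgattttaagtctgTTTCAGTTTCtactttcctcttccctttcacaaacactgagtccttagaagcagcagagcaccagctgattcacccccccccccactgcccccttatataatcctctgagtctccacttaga
Oas1a (chr5:120907526-120907775, minus strand): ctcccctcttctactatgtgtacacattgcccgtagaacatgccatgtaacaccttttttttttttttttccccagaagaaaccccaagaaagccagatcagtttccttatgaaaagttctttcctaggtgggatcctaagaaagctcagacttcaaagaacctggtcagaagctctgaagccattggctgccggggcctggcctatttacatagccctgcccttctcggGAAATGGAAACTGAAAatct
Each of the 3 held 2 matches, on the strand opposite to the gene in Ifit1 and Ifit3 and on the gene's own strand, overlapping, in Oas1a. The motif was present in 936 of the 27025 genes of the table (3.46%) and in 434 of 13311 tested genes with an entry (3.26%). It was present in 8 of 15 tested list genes with an entry (53.3%) and in 0 of 86 genes called higher. Among genes called lower it was present in 5 of 50 (10%), and the 3 printed here are among these 5. The promoters of Rnf213, Samd9l and Uba7, interferon genes called lower that are described below, held no match. A match is a description of the letters and does not show a bound site.

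Outside the list, 8 further genes of interferon signaling, named after their values were seen, fell in early tumors. Ifih1 and Dhx58, sensors of viral RNA, differed by -1.68 (SE 0.39, adjusted p = 0.0455) and -1.78 (SE 0.30, adjusted p = 0.00973). Stat2, the transcription factor of the type I response, read 0.39, 0.45 and 0.54 against 1.69, 2.15 and 1.34, a difference of -1.26 (SE 0.25, adjusted p = 0.0261). Uba7, the enzyme that activates the ubiquitin-like ISG15, read -0.54, -0.40 and -0.56 against 1.29, 1.05 and 0.29, a difference of -1.38 (SE 0.28, adjusted p = 0.0196). The order of the late tumors was the same in Ifih1, Dhx58 and Stat2, with MSU_58 highest and MSU_59b lowest, at 1.77, 1.03 and 1.34. The ADP-ribosyltransferases Parp14 and Parp10 differed by -1.75 (SE 0.27, adjusted p = 0.00754) and -1.22 (SE 0.27, adjusted p = 0.0364). Samd9l, an antiviral and growth-restraining protein, differed by -1.70 (SE 0.31, adjusted p = 0.0142), and Rnf213, a ubiquitin ligase, by -1.41 (SE 0.32, adjusted p = 0.0469).

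The late tumors were not alike in their interferon genes or in their lymphocytes. The list median, after the mean of the 6 tumors was subtracted from each gene, was -0.93, -0.97 and -0.78 in the early tumors and 1.35, 1.65 and -0.31 in the late tumors, so MSU_59b was the nearest to the early tumors. The T cell list, centered the same way, stood at -0.51, -0.50 and -0.79 in the early tumors and -0.56, 2.09 and 0.43 in the late tumors. MSU_58 was thus high in both lists, and MSU_26 was high in interferon genes with T cell markers at the level of the early tumors. None of the 16 tested T cell genes was called, and 14 had a difference below 0. Cd3e, a subunit of the T cell receptor complex, read -0.47, -0.48 and -0.69 against -0.31, 1.995 and 0.87, and Gzma, a cytotoxic granule protease, read -2.40, -2.20 and -1.99 against -1.14 and 3.89. The part of the lymphocytes in the interferon differences was not tested.

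**Figure D3:**
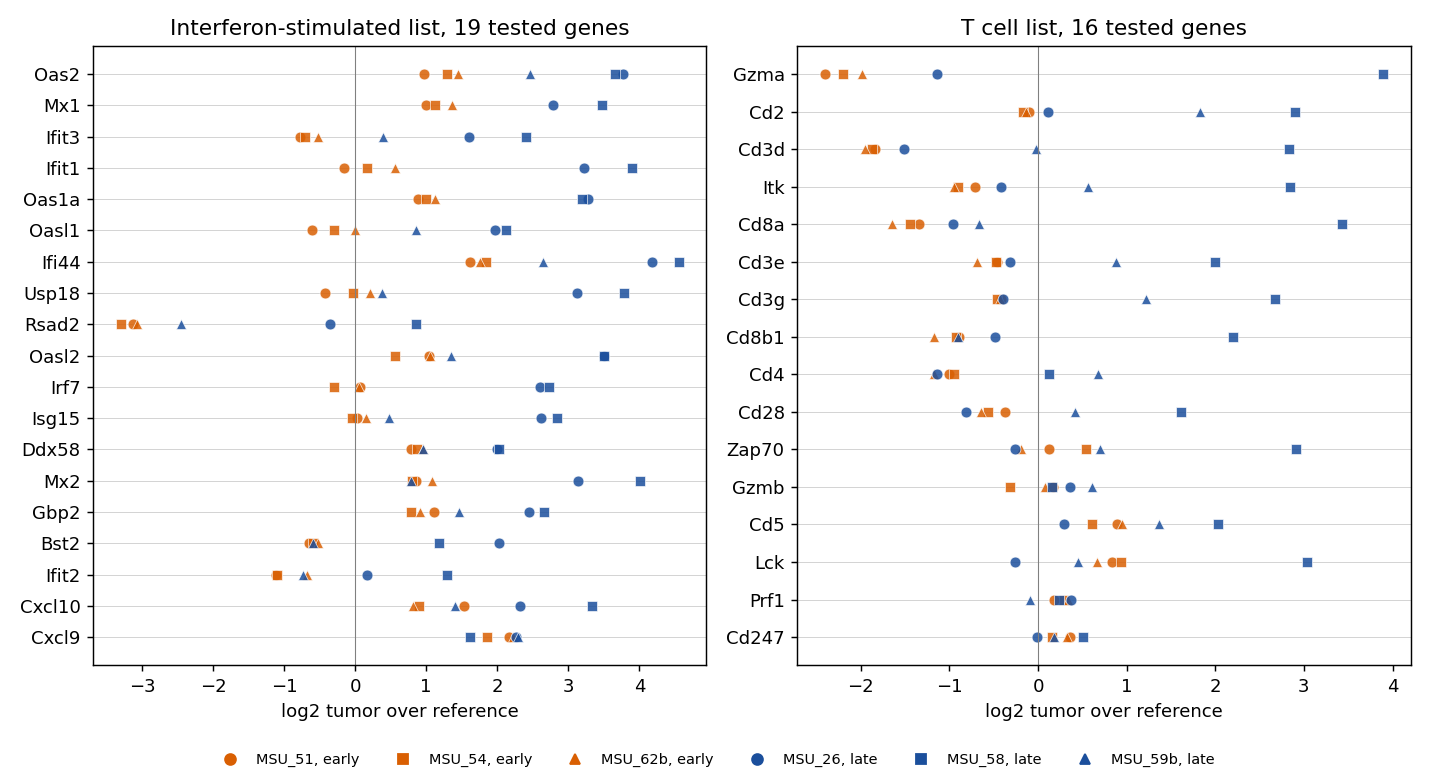
The log2 ratio of tumor over reference in each of the 6 HFD-LFD tumors for the 19 tested interferon-stimulated genes (left) and the 16 tested T cell genes (right). MSU_26 (blue circles) lies with MSU_58 in most interferon genes and near the early tumors in most T cell genes. A gene with 2 late points was masked in MSU_59b.

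Outside that list 3 lymphocyte genes, also named after their values were seen, fell. Itgb7, an integrin of lymphocyte homing, read 0.07, -0.27 and -0.14 against 0.48, 2.30 and 1.76, a difference of -1.63 (SE 0.38, adjusted p = 0.0467). Ctsw, a cathepsin of cytotoxic lymphocytes, read 0.02, 0.22 and 0.14 against 1.95 and 1.36, a difference of -1.53 (SE 0.30, adjusted p = 0.0196). Prkcq, a kinase of T cell receptor signaling, read -2.02, -2.49 and -2.13 against -1.42, 0.15 and -0.77, a difference of -1.54 (SE 0.30, adjusted p = 0.0245). Ctsw was highest in MSU_26, while Itgb7 and Prkcq were highest in MSU_58. Of the antigen presentation list none of 14 genes was called, and all 14 were below 0 with a median of -0.58. Tap2, a subunit of the peptide transporter, read 1.12, 1.06 and 0.65 against 2.19, 3.32 and 1.35.

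The other large falls in early tumors also lay in genes of varied known roles. Brinp1, a neural protein induced by BMP and retinoic acid, read -3.43, -3.63 and -3.56 against -0.11, 0.43 and -0.50, a difference of -3.48 (SE 0.77, adjusted p = 0.0344). Il33, an alarmin cytokine of epithelial and stromal nuclei, read 0.78, 1.95 and 1.104 against 3.66, 3.22 and 3.75, a difference of -2.26 (SE 0.44, adjusted p = 0.0232). Lrg1, a secreted glycoprotein of the acute phase, read -1.16, -0.91 and -1.15 against 1.48, 0.95 and 1.05, a difference of -2.23 (SE 0.42, adjusted p = 0.018). For these 3 genes the late tumors lay together, MSU_59b included. Tmc4, a transmembrane channel-like protein, differed by -2.29 (SE 0.52, adjusted p = 0.0372), and Insl6, an insulin-like peptide, by -2.25 (SE 0.44, adjusted p = 0.022). Cyp2d10, a cytochrome P450 with close paralogs, differed by -2.25 (SE 0.32, adjusted p = 0.00352). Cd164l2, Ccdc160 and Cystm1 completed the 12 largest falls with -2.26, -2.17 and -2.13 (adjusted p = 0.0325, 0.0477 and 0.00993). The probe of Ccdc160 was well above background on 2 of the 3 early arrays.

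No gene of the lists of secretory and luminal mammary cells was called. All 20 tested genes of the milk and alveolar list had a difference below 0 and 16 had every early value below every late value, against 19.4% of all genes, with a median of -2.02, or -1.16 without MSU_26. The milk protein gene Csn2 (beta-casein) read 1.52, 1.28 and 0.96 against 8.03, 2.06 and 4.63, and Csn3 (kappa-casein) read 3.53, 3.25 and 3.34 against 6.01, 5.76 and 5.05. Mfge8, a milk fat globule protein, read -0.09, 0.21 and 0.27 against 3.58, 3.26 and 1.22 and differed by -2.56 (SE 0.79, adjusted p = 0.128). MSU_26 was highest in Csn2, and the late values spread so widely that its difference of -3.65 had an SE of 2.87. In the list of luminal hormone receptor cells, 16 of 21 genes were below 0, with a median of -1.47, and none was called. Gata3, a luminal transcription factor, read 0.54, 1.08 and 0.79 against 2.79, 2.54 and 2.23 (difference -1.71, adjusted p = 0.123). Prlr, the prolactin receptor, read -0.36, 0.26 and -0.48 against 4.25, 5.45 and 1.68 (difference -3.99, adjusted p = 0.209). Foxa1, a pioneer factor of the estrogen receptor, read -1.55, -0.84 and -2.06 against 2.88, 3.64 and -0.20, with MSU_59b apart from the other late tumors. Esr1, the estrogen receptor gene, was well above background on 0 of 3 early and 3 of 3 late arrays, and was not called (adjusted p = 0.686).

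Basal and squamous genes varied within both groups. The basal and myoepithelial list had 11 of 22 genes above 0 and a median of 0.02, with none called, and the median was -0.006 on the scanner software ratios. Cdh3, the P-cadherin of basal cells, read 2.22, 1.82 and 1.83 against -0.15, -0.84 and 1.41 (difference 1.82, adjusted p = 0.117). Squamous genes were above 0 in 29 of 37 cases, with a median of 0.67 and none called. Their centered list median was 0.74, -0.20 and 0.33 in the early tumors and -0.39, -1.58 and 1.47 in the late tumors, so that the highest of all 6 was the late tumor MSU_59b and the lowest the late tumor MSU_58. Sprr2d, a protein of the cornified envelope, read 3.50, 2.02 and 2.94 against -0.85 and -3.19. The hair keratin list stood at 1.29, 1.78 and -1.52 in the early tumors and 1.77, -2.003 and -1.07 in the late tumors, high in MSU_51, MSU_54 and MSU_26 and low in the others. Krt35, a hair keratin, read 0.94, 1.48 and -2.38 against 0.92, -3.01 and -3.22, and the groups overlapped.

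**Figure D4:**
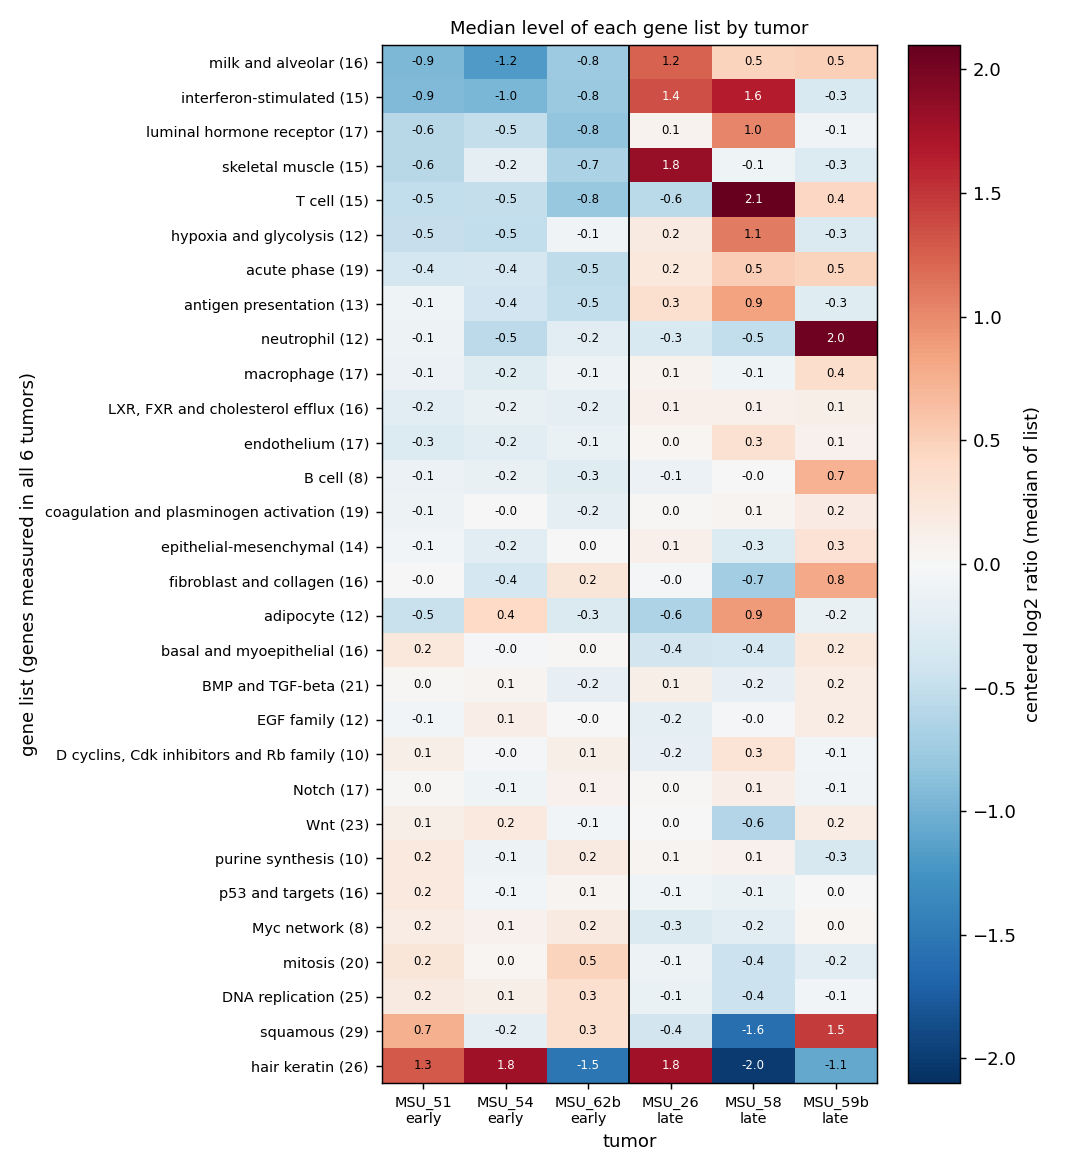
Median over each list of the log2 ratio, after subtraction of the gene's mean of the 6 HFD-LFD tumors, by tumor (columns) and list (rows, ordered by early minus late). Red is higher and blue lower, the numbers are the medians, and those in parentheses count the genes measured in all 6 tumors. MSU_58 is highest in T cell genes (2.1) and MSU_59b in neutrophil genes (2.0).

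Genes of cell division leaned towards the early tumors. All 35 tested DNA replication genes were above 0 with a median of 0.49, and 20 of them had every early value above every late value, against 14.7% of all genes. All 25 mitosis genes were above 0 with a median of 0.46, and 15 were separated in that way. No gene of either list was called. Mcm4, a subunit of the replicative helicase, read 1.101, 0.88 and 1.18 against 0.06 and -0.02 (difference 1.03, adjusted p = 0.164). Kif23, a motor of cytokinesis, read 0.06, 0.04 and 0.30 against -0.73, -1.55 and -0.64 (difference 1.11, adjusted p = 0.0961). In both genes MSU_58 was the lowest tumor. In the list of D cyclins, Cdk inhibitors and Rb family genes 1 of 15 rose, against 0.559% of all genes. This was Rbl1, the pocket protein p107, with 1.61, 1.47 and 1.84 against 0.86, 0.38 and 0.74 and a difference of 0.98 (SE 0.21, adjusted p = 0.0316). Of 12 purine synthesis genes none was called, and Paics differed by 0.76 (SE 0.19, adjusted p = 0.0723). Of 10 genes of the Myc network none was called. Mycn, a MYC-family transcription factor, read 1.24, 1.44 and 2.14 against -2.12, -4.03 and 1.47, so that MSU_59b lay within the range of the early tumors.

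None of 28 Wnt genes, 22 BMP and TGF-beta genes and 19 Notch genes was called, and their medians were 0.17, 0.03 and 0.09. Over all genes 0.922% were called, so the lack of a call says little about lists of this size. In the Wnt list 7 genes had every early value above every late value, against 14.7% of all genes, and 7 were called higher in HFD, against 5.93%. Sp5, a target gene of beta-catenin, read 3.60, 3.48 and 2.84 against 0.30 and -2.10 (difference 4.20, adjusted p = 0.0715), which is the widest gap of the Wnt list. Of 8 genes that the study followed by qRT-PCR, 7 could be tested here, all 7 were above 0 and 1, Ntf3, was called. The remaining gene, Bmp10, which the study reported as lower in early tumors, could not be tested. The study's folds for early HFD-LFD tumors were against tumors of the reverse diet switch, and not against late HFD-LFD tumors. Bmp7 read 2.15, 1.95 and 1.92 against 0.59, -0.43 and 1.48 (adjusted p = 0.224), and Ctnnb1, which encodes beta-catenin, read 0.97, 0.78 and 0.89 against 0.01, 0.14 and 0.62 (adjusted p = 0.167). Brca1, of DNA repair, Apaf1, of the apoptosome, and Trp53, the p53 gene, had differences of 0.56, 0.97 and 0.24, and Ccnd2, cyclin D2, one of 1.33 (adjusted p = 0.196, 0.283, 0.798 and 0.412). The study took those genes from earlier work on short-latency tumors of mice on the continuous HFD, so they were not picked without regard to latency.

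Among the lists of stress, liver-type and metabolic genes, none held a call. The counts below stand beside 43.8% of all tested genes with a difference above 0. Of 18 hypoxia and glycolysis genes 14 were below 0 with a median of -0.82. Aldoa, a glycolytic aldolase, read -1.87, -1.98 and -1.84 against -0.42, 0.29 and -1.49 (adjusted p = 0.0866). Of 21 acute phase genes 18 were below 0 with a median of -0.81, and Hp (haptoglobin) read -1.51, -1.97 and -1.83 against 0.95, 0.46 and 0.25 (adjusted p = 0.181). Of 20 genes of LXR, FXR and cholesterol efflux 17 were below 0 with a median of -0.37. Of 22 coagulation and plasminogen genes 16 were below 0 with a median of -0.23, which became 0.13 under median centering. F3, the tissue factor that starts coagulation, read -2.52, -2.36 and -1.73 against 0.85, 2.36 and -0.85 (adjusted p = 0.139). Of 18 genes of the p53 list none was called, and of 19 genes of epithelial-mesenchymal transition none was.

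Among markers of other cell types, none was called of 14 neutrophil, 20 macrophage, 9 B cell, 18 endothelial, 20 fibroblast, 17 adipocyte and 17 skeletal muscle genes. Endothelial genes were below 0 in 16 of 18 cases and 7 had every early value below every late value, against 19.4% of all genes, with centered medians of -0.28, -0.24 and -0.13 in the early tumors and 0.05, 0.32 and 0.09 in the late tumors. Macrophage genes were below 0 in 14 of 20 cases, and 8 were separated in that way. Of all tested genes, 43.8% had a difference above 0. Neutrophil genes had a centered median of 2.04 in MSU_59b and between -0.55 and -0.11 in the other 5 tumors, and Camp, a granule protein, read -6.17, -6.06 and -6.07 against -6.01, -4.72 and -1.41. Skeletal muscle genes had a centered median of 1.83 in MSU_26 and between -0.67 and -0.09 in the others. Acta1, the actin of skeletal muscle, read -5.16, -5.04 and -5.35 against -2.75, -4.24 and -4.91. Fibroblast genes ranged from -0.72 in MSU_58 to 0.80 in MSU_59b. Macrophage genes varied less, from -0.25 to 0.37, and Cd14, a receptor for bacterial lipopolysaccharide, read 0.98, 1.30 and 1.38 against 3.67, 3.24 and 2.23 (adjusted p = 0.197). The list medians of macrophage, fibroblast, adipocyte and epithelial-mesenchymal genes were -0.39, -0.22, -0.10 and -0.23, and under median centering they became 0.03, 0.23, 0.34 and 0.18. Within the session without MSU_59b the neutrophil median went from -0.54 to 0.05. The part of these cells in the 193 calls was not tested.

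Tumors of the continuous HFD gave more calls and mostly smaller changes for the same genes. Early and late HFD tumors (3 against 6 arrays, none shared with HFD-LFD) differed in 2827 genes (13.5%). On the arrays of HFD Late replicates 5 and 6, 28.3% of the spots were masked. Genes without a spot outside those rows, such as Cybrd1, have 4 late HFD values. The HFD early arrays lie on 1 slide and the late arrays on 2 others, and with slide as a random or fixed block 1034 or 18 genes were called. Of the 193 HFD-LFD calls, 94 were also called in HFD with the same direction and 1, AI448005, with the opposite one. The 94 are 48.7% of the HFD-LFD calls and 3.33% of the HFD calls. The sign was the same in 177 of the 193, in 102 of the 117 that rose and 75 of the 76 that fell, and the change was smaller in HFD for 179. A gene chosen by its call in one comparison has its larger change there in part by that choice.

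When the change in HFD-LFD was tested against that in HFD, 0 genes (0%) were called. The smallest adjusted p was 0.0931, and 1718 genes, 79 of the 193 among them, had an unadjusted p under 0.05. Aldh1a1 and Cybrd1 differed about as much in HFD, by 3.41 and 2.46 (adjusted p = 0.00148 and 0.00283). Tgfa differed by 2.17 (adjusted p = 0.000728) and Brinp1 by -2.34 (adjusted p = 0.0263). Neto1 differed by 1.24 there (adjusted p = 0.0757), Bcas1 by 0.46 and Wdr86 by 0.17, and the difference between the changes was 3.41, 2.45 and 2.73 with adjusted p of 0.218, 0.429 and 0.218. In the interferon list 5 of 19 genes fell in HFD, against 7.57% of all genes, and the list median was -1.18. Of its genes, Oas2 and Oas1a were called in both comparisons, while Ifit1, Ifit3 and Mx1 were not called in HFD (adjusted p = 0.18, 0.0637 and 0.135). The milk and alveolar list had a median of -0.53 there, and the DNA replication and mitosis lists had 5 of 35 and 9 of 25 genes called higher, against 5.93% of all genes, with medians of 0.33 and 0.82. In the hypoxia and glycolysis list 2 of 18 genes were called higher in HFD with a median of 0.38, a sign opposite to that in HFD-LFD, and that difference was not tested.

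**Figure D5:**
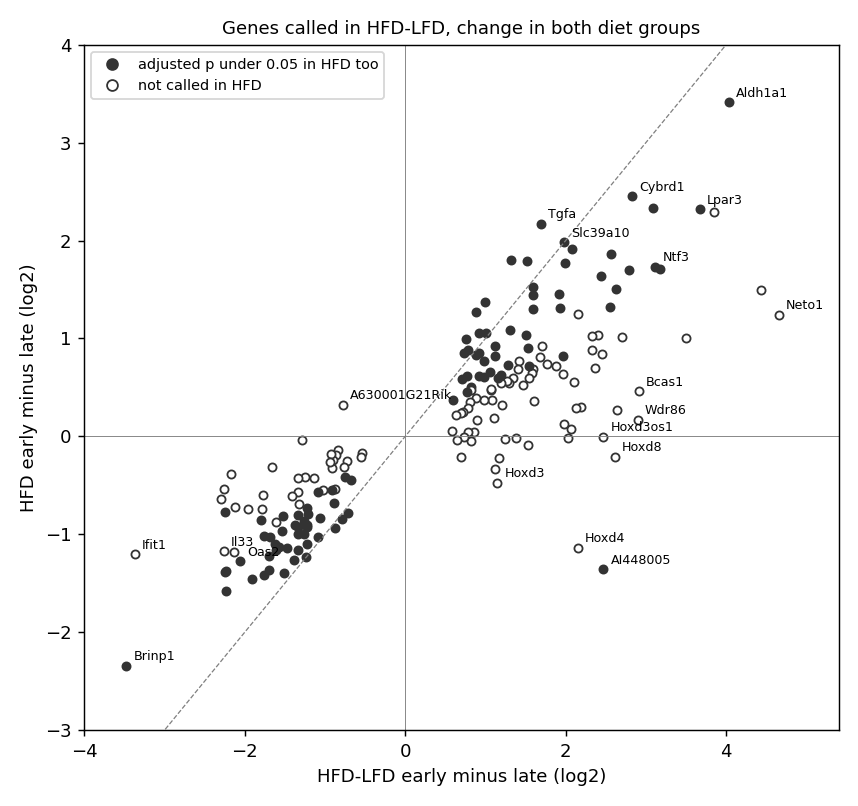
The 193 genes called in early versus late HFD-LFD tumors, by their early minus late difference in log2 ratio in HFD-LFD (horizontal) and HFD tumors (vertical). Filled points were also called in HFD, and the dashed line marks equal change. Most points (179) lie nearer to 0 in HFD, and AI448005, Hoxd4 and Hoxd3 lie below 0.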

How the data were processed

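Whole-tumor RNA of 24 mouse mammary tumors was hybridized to 2-color arrays, and 6 of these arrays form the comparison. The deposited intensity values are spot mean and background signals of Agilent Feature Extraction (version 8.5.1.1 in the submitters' processing notes, 11.0.1.1 in the file headers), and the authors' scanner software also gave log10 ratios, deposited with dye normalization applied. Per the study's methods, spots above an intensity of 10 in 80% of samples were kept, and that filter was used here. Rows 1 to 110 of the slide of MSU_59b and rows 381 to 532 of another slide were masked. Signals were corrected with normexp (offset 50), normalized by loess within each array with control and outlier spots at weight 0, and expressed as log2 of tumor over reference. Of 39429 probes, 27302 passed, and the brightest probe stood for each of 20955 genes. Names came from RefSeq (27234 probes by accession, 3576 by symbol, 565 through an earlier symbol); the other 8054 keep their array names. A gene needed 2 values in each compared group, and missing values were not imputed.

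Groups were fitted with limma 3.58.1 in R 4.3.3 (all 24 arrays as diet and onset groups, contrasts, eBayes, Benjamini-Hochberg over all tested genes), with significance at an adjusted p of 0.05. The script was tested on simulated data. The number of arrays limits the precision. Alternatives changed the background correction, normalization, filter, mask, imputation, probe choice, arrays in the fit, slide and session blocks, array weights, prior and single tumors. Bounds replaced folds for probes not well above background in the tumor channel on every array of a group, from log2 intensities of that channel after loess and Aquantile scaling: the bright group's mean against, for each dim array, the higher of its lowest signal well above background and the probe's own. The members and gene lists were chosen with earlier results of these data known. Named genes were drawn from the 12 largest rises and falls with groups that did not overlap, up to 4 tested members with the smallest p of each list, the defining markers, the genes followed by qRT-PCR and the 5 smallest p-values of the difference between the changes. One gene that the rule named is not reported here. Genes outside this rule are said to have been named after their values were seen. Probe positions are those of the file headers (mm9).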

Additional observations from a re-analysis of the deposited data

Results flagged for a closer look

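Of 46 sets of HFD Late values of the named genes, 2 held a sample whose gap to its nearest neighbor was large for the range of the group, and chance alone gives about 1 in 20. Both were the HFD tumor of Late replicate 4. Ccdc160 read -0.84 in it, with the nearest of the other HFD Late tumors at 0.58 (n = 4 with a value). Cd164l2 read -0.26 in it, with the nearest at 0.96 (n = 6). Both genes fell in early HFD-LFD tumors, and these values enter only their HFD difference.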

How the results depend on the processing

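All 46 called genes named above kept their direction under every alternative that gave a value. Their groups did not overlap, so leaving out 1 tumor could not turn a direction, and most other alternatives reuse the same arrays. The calls themselves were less stable, and Loxl4, Itgb7, Rnf213 and Ccdc160 kept theirs under 8 of 25 alternatives. With the spread taken from the compared arrays alone, 404 genes were called, and only 114 of them were among the 193. Of the 193 calls between early and late HFD-LFD tumors, the count became 468 with normexp fitted on all spots, 128 with the scanner software ratio, 428 with median centering (93.5% higher, against 60.6%), 96 with the tumor channel alone (82.3% higher), 55 with dimmed rows not masked, 68 with rows masked on MSU_59b only, 404 with the arrays of the compared groups alone, 57 and 2 with slide as a random and as a fixed block, 397 with scan session as a block, 1646 within 1 session, 2265 with array weights, 3336 at an unadjusted p, and 33 to 280 without single tumors. The 2827 HFD calls became 1261 with the tumor channel alone, 1521 with dimmed rows not masked, 1575 with rows masked on MSU_59b only, 713 with the compared groups alone, 1034 and 18 with slide as a random and a fixed block, 8627 with array weights, 6343 at an unadjusted p, and 1055 to 3782 without single tumors. The 0 calls of the difference between the changes became 4 with the scanner software ratio, 527 with array weights, 1718 at an unadjusted p and 0 to 17 without single tumors. Array weights, estimated from these few arrays, gave the most calls at the same threshold, and the cause was not tested. Aaas went from -0.16 to 0.27 with median centering and 0.22 with slide as a fixed block. The other alternatives left the 3 counts within 1.5 times, among them a wider mask of dimmed rows chosen after seeing the data (228). Slide and latency nearly coincide, and the fixed block can be estimated only through MSU_59b and tumors of the reverse diet switch. No paired analysis was possible because the labels give no replicate numbers, and those used here follow accession order. For genes not well above background in a group, such as Hoxd3os1 in late and Esr1 in early tumors, the ratios of that group are readings near the floor. Their differences and p-values rest on those readings.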
